A study of Mus musculus with 7 samples.

Results

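The nuclear-encoded subunits of the mitochondrial respiratory chain and of ATP synthase were read on 7 Affymetrix Mouse Gene ST arrays of mouse liver. They were chosen by gene symbol alone: Nduf genes of the a, b, c, s and v series, Sdha to Sdhd, all Uqcr genes, Cox4 to Cox8 and all Atp5 genes. The rule found 81 of the 19933 genes on the arrays, and each was read from its brightest probe set with 1 gene symbol. By name, 35 belonged to complex I, 4 to complex II, 8 to complex III, 17 to complex IV and 17 to complex V, the ATP synthase. No filter on low values was applied, so all 81 were tested. The rule itself used measured values only in that choice of probe set, but it was set with earlier results of these data known.

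Each array held total RNA from the liver of a male C57BL/6 mouse, 4 months old, on normal chow with free access to food. The 3 knockout livers came from mice that received an adeno-associated virus (AAV) carrying Cre recombinase, and their genotype is labelled HDAC3 knockout. The 4 rescued livers came from mice given the same AAV-Cre together with AAV-Flag-HDAC3, labelled HDAC3 rescued wild-type. All livers were taken 2 weeks after injection at 5 pm, at ZT10, so both groups carry Cre and neither is an untreated liver. The sources used here name neither the Hdac3 allele that Cre acts on nor the promoters of the vectors, nor the cells the vectors reached. The sample titles call the rescued livers WT, while their descriptions name both vectors. The rescued mice also carry 1 vector more than the knockout mice. HDAC3 is a histone deacetylase that works in nuclear corepressor complexes, and the comparison asks how liver transcripts differ when it is absent from when it is supplied again.

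The respiratory chain passes electrons from NADH, at complex I, and from succinate, at complex II, through ubiquinone to complex III and on to oxygen at complex IV. Complexes I, III and IV pump protons out of the mitochondrial matrix, and ATP synthase makes ATP from their return. Most subunits are encoded in the nucleus, a small set in mitochondrial DNA, and hepatocytes are rich in both. Nuclear respiratory factors, ETS family factors such as GABP, and ERR alpha with its PGC-1 coactivators are known regulators of the nuclear genes.

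Promoters are shown for the members that passed the test below and have an entry in the promoter table, since factors of this kind act there. Each line gives the 250 bases before the annotated start, 5′ to 3′ on the gene's strand, from RefSeq on build GRCm38.p6. Capitals mark matches to the searched motifs. Sdhd lies at chr9:50603850-50604099 on the minus strand, Ndufs5 at chr4:123718187-123718436 on the minus strand, Ndufb5 at chr3:32736813-32737062 on the plus strand and Cox8b at chr7:140900447-140900696 on the minus strand.
Sdhd: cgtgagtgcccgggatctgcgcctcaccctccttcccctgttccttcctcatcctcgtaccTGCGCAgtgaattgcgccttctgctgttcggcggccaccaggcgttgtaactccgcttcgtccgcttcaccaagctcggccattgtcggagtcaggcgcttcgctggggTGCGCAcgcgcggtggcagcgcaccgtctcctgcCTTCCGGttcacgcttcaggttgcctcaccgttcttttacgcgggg
Ndufs5: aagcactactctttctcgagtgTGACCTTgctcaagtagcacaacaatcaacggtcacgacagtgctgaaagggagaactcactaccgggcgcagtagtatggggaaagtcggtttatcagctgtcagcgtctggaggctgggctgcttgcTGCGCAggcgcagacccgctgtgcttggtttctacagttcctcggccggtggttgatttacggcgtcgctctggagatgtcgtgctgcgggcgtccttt
Ndufb5: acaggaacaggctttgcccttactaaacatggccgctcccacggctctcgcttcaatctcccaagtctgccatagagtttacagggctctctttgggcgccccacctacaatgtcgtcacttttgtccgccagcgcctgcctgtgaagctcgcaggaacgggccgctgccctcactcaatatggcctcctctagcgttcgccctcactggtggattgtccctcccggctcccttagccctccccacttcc
Cox8b: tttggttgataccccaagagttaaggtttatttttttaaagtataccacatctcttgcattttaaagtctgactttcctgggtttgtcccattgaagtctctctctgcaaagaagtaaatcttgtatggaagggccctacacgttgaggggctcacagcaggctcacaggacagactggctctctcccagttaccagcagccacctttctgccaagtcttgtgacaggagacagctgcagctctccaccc
The Sdhd window held the NRF1 core TGCGCA at 2 places, 189 to 184 and 80 to 75 bases before the start, and the ETS core CCGGAAG on the other strand at 46 to 40 bases. In the Ndufs5 window the NRF1 core lay 99 to 94 bases before the start, and the ERR half-site AAGGTCA lay on the other strand at 228 to 222 bases. The Ndufb5 and Cox8b windows held none of the motifs searched, which says only that these letters are not in these windows.

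The promoter table held 71 windows for 66 of the 81 genes, and Ndufa2 was among the 15 without an entry. Each motif was searched on its own on both strands, and no 2 matches overlap in the windows printed above. The NRF1 core was in 14 of the 71 windows, 19.7%, against 8.51% of the 19173 windows of measured genes and 6.43% of all 32851 windows. The ETS core was in 12, 16.9% against 9.41% and 6.91%. The ERR half-site was in 4, 5.63% against 3.39% and 4.08%. The YY1 core AAGATGG was in 1, 1.41% against 4.17% and 4.49%. Median GC content was 56.0% in the members' windows and 52.4% in all windows. These shares describe the promoters and were not tested.

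Values below are log2 intensities, given as mean ± SD with the number of arrays, and differences are knockout minus rescued. A gene was called when limma's moderated test gave an adjusted p under 0.05, with Benjamini-Hochberg adjustment over all 19933 genes. The labels call the arrays biological replicates, and their number limits the precision. The knockout arrays had median intensities of 105.01 to 110.85, and the rescued arrays 96.29 to 102.33, so an offset between the groups is part of the deposited values. The Hdac3 probe set read 8.92 ± 0.16 (SD, n = 3) against 9.40 ± 0.13 (SD, n = 4), a difference of -0.48 with adjusted p = 0.0124, a call lost without knockout replicate 1. It could read vector RNA too, so it checks the labels only in part. The liver origin was borne out by its markers. None of 9 hepatocyte markers was called, with summed levels of 16.42 to 16.47 (knockout) and 16.40 to 16.46 (rescued). In whole liver, fewer cells of a type and less RNA per cell cannot be told apart.

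The subunit genes differed little between the knockout and the rescued livers. Of the 81 genes, 5 were called, 2 higher and 3 lower in the knockout livers. The split was 0 higher and 3 lower after quantile normalization, 1 and 2 after cyclic loess, and 0 and 7 after median centring. That is 6.17% of the members, while 14.4% of all genes were called, 9.54% higher and 4.85% lower. Most members are bright, with 75 of 81 above the median level of all genes, and among genes above that level 17.8% were called, 9.09% higher and 8.73% lower. Rescaling the arrays changed the background: quantile normalization called 9.98% of all genes (4.22% higher, 5.76% lower), cyclic loess 9.84% (4.09% and 5.75%) and median centring 13.5% (2.59% and 10.9%). The differences ran from -0.47 for Ndufs5 to 0.26 for Cox6b2, a testis-type subunit of complex IV that was not called (adjusted p = 0.0614). The median was 0.03 over the members, 0.09 over all genes and 0.00 over genes above the median level. The members' median was -0.01 after quantile normalization, 0.00 after cyclic loess and -0.08 after median centring, so no common direction is given for them. In the same order, the median of genes above the median level was -0.012, -0.016 and -0.115.

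A change of 1.2-fold was exceeded by Ndufs5 alone. The other 80 members, 98.8%, lay within it, beside 81.9% of all genes and 78.2% of genes above the median level. No member reached 1.5-fold, while 1.61% of all genes were called at that size. The 95% interval of the difference measured how large an undetected change could be. Its half-width had a median of 0.169 over the members and ranged from 0.134 to 0.276. For 80 of 81 members the whole interval lay within 1.5-fold in both directions, and for 58 within 1.25-fold. Over genes above the median level the shares were 90.0% and 49.3%, against 98.8% and 71.6% of the members. Quantile, median and cyclic loess scaling left 80 members within 1.5-fold and 63, 58 and 64 within 1.25-fold. The count of arrays that separate gave the same picture. In 12 members, 14.8%, the groups did not overlap, against 29.6% of all genes. The knockout arrays were the higher ones in 9 of 81 members, against 4194 (21.0%) of all 19933 genes. They were the lower ones in 3 members, against 1707 (8.56%). Among the 9966 genes above the median level the counts were 1605 higher and 1535 lower.

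**Figure D1:**
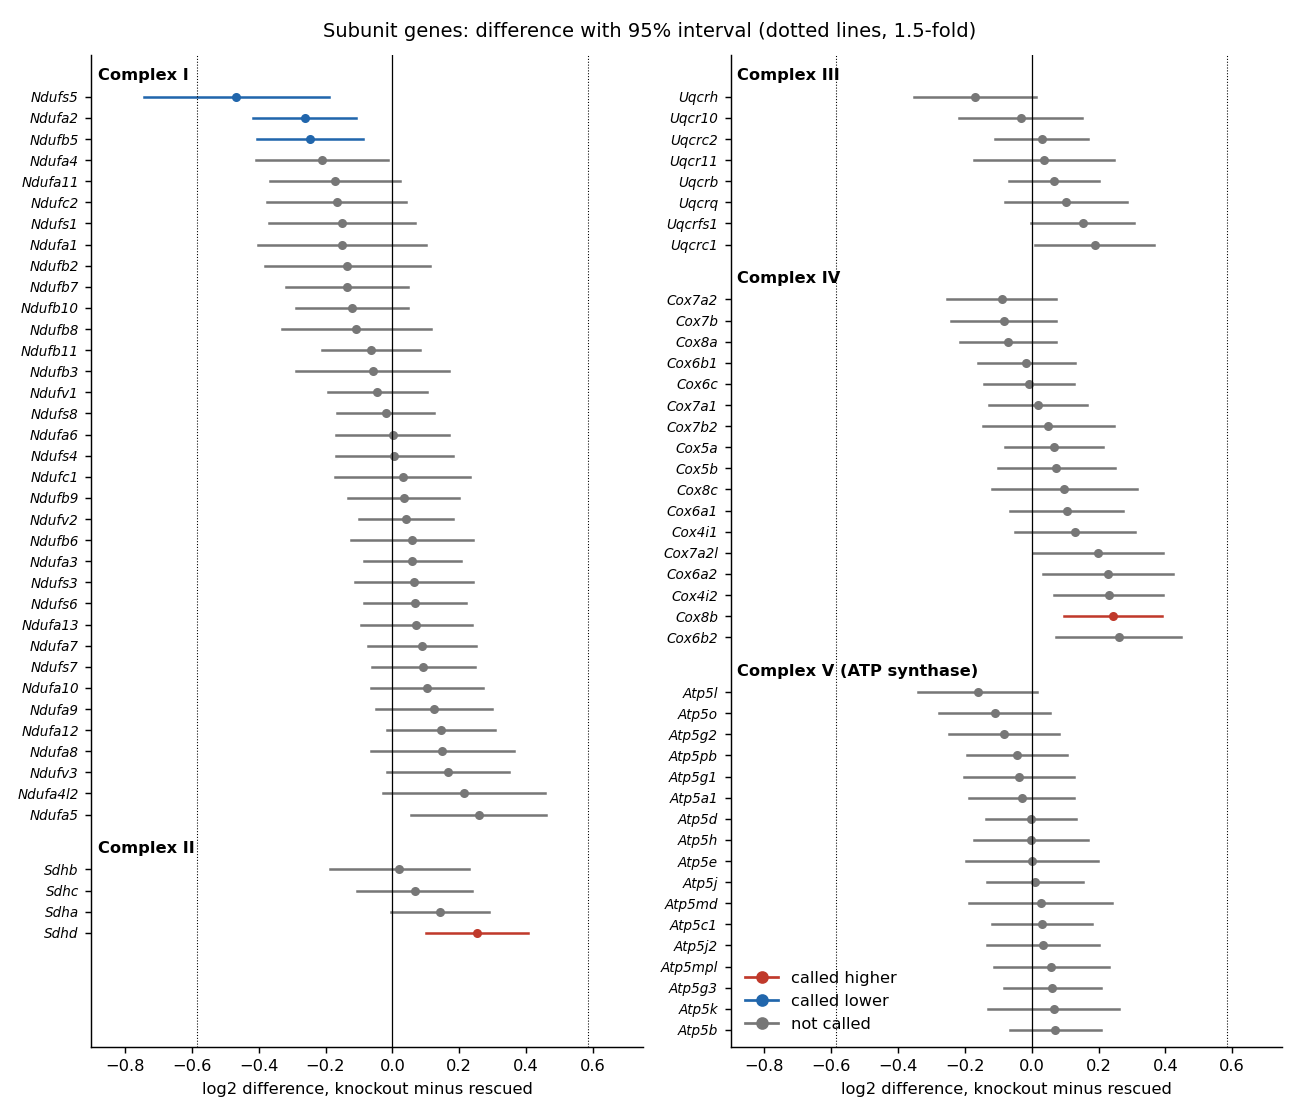
Difference between knockout and rescued livers for all 81 subunit genes, by complex. The x axis is the log2 difference, points are estimates, bars are 95% intervals, dotted lines mark 1.5-fold, and colours mark the 2 genes called higher and the 3 called lower. Only the interval of Ndufs5 reaches past 1.5-fold.

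Complex I is the entry point for electrons from NADH and the largest of the complexes. Of its 35 genes, 3 were called lower and none higher. Called lower were 4.85% of all genes and 8.73% of genes above the median level. Complex I had a median difference of 0.01. The median was -0.03 after quantile normalization, -0.01 after cyclic loess and -0.11 after median centring. The 3 were Ndufa2, Ndufb5 and Ndufs5, all accessory subunits that carry no redox centre.

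Ndufa2 encodes a small subunit of the matrix arm. It read 9.10, 9.20 and 9.10 in the knockout arrays and 9.29, 9.47, 9.43 and 9.41 in the rescued arrays. Every knockout value lay below every rescued value. The difference was -0.26 (SE 0.07, 1.2-fold lower), and limma's adjusted p was 0.0346. The call held in all 3 other scalings, with differences of -0.38 to -0.25. With 1 array left out it stayed between -0.30 and -0.24. Dropping knockout replicate 2 or rescued replicate 1 kept the call, and dropping knockout 1, knockout 3, rescued 2, rescued 3 or rescued 4 ended it.

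Ndufs5 encodes a subunit of the membrane arm that faces the intermembrane space. Its knockout arrays read 7.73, 7.15 and 7.49, and its rescued arrays 8.06, 7.72, 7.97 and 7.93. The groups overlapped, since knockout replicate 1 reached the level of rescued replicate 2. The difference was the largest of the 81, -0.47 (SE 0.13, 1.38-fold lower), with adjusted p = 0.0349 (limma), and it was called in all 3 other scalings. Leaving out 1 array gave -0.60 to -0.31. Dropping knockout replicate 1 or rescued replicate 2 kept the call, and dropping knockout 2, knockout 3, rescued 1, rescued 3 or rescued 4 ended it. A further probe set, annotated to Ndufs5 together with the pseudogene Ndufs5-ps, read 6.999 against 7.27, a difference of -0.28 with adjusted p = 0.0591 over all rows. Signal of the gene and of its near-identical pseudogene cannot be separated there.

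Ndufb5, a further membrane arm subunit, read 9.35, 9.51 and 9.43 in knockout and 9.62, 9.60, 9.73 and 9.75 in rescued arrays. The groups did not overlap. The difference was -0.25 (SE 0.07, 1.19-fold lower), and limma's adjusted p was 0.0454. Cyclic loess ended the call (adjusted p = 0.0567), and so did dropping any array other than rescued replicate 1. With 1 array left out the difference was -0.28 to -0.20.

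The 6 core subunits measured, which hold the flavin and the iron-sulfur clusters or form the quinone site, had no called gene. Their differences ran from -0.15 for Ndufs1 to 0.09 for Ndufs7. Ndufv1, which binds NADH, read 10.41 ± 0.07 (SD, n = 3) against 10.46 ± 0.05 (SD, n = 4), and the interval of its difference was -0.19 to 0.10. Ndufs7, which holds the last cluster before ubiquinone, read 12.38 ± 0.09 against 12.29 ± 0.05, with an interval of -0.06 to 0.25. Ndufa5, an accessory subunit of the quinone arm, had the most positive difference of complex I, 0.26. Its knockout values of 8.02, 7.96 and 7.81 lay above the rescued values of 7.56, 7.53, 7.80 and 7.80, the nearest of them by a small margin. It was not called, with adjusted p = 0.0762 by limma. Ndufc2, of the membrane arm, differed by -0.17 with an interval of -0.37 to 0.04.

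Complex II, succinate dehydrogenase, belongs to both the chain and the citrate cycle and is encoded in the nucleus throughout. Of its 4 genes 1 was called higher, beside 9.54% of all genes and 9.09% of genes above the median level. The estimate was above 0 for all 4. The median was 0.10, 0.06 after quantile normalization, 0.07 after cyclic loess and -0.01 after median centring. Sdhd, one of the membrane anchors that bind ubiquinone, was the called gene. It read 11.21, 11.16 and 11.05 in knockout and 10.87, 10.83, 10.96 and 10.90 in rescued arrays. All knockout values were the higher ones. The difference was 0.25 (SE 0.07, 1.19-fold higher), with adjusted p = 0.0370 in limma's test. It was 0.0509 after quantile normalization, 0.0349 after cyclic loess and 0.216 after median centring. With an array left out the difference was 0.22 to 0.30, and dropping any array other than knockout replicate 3 ended the call.

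Sdha, the flavoprotein that oxidises succinate, read 11.96, 11.94 and 11.81 in knockout and 11.76, 11.74, 11.77 and 11.77 in rescued arrays. The groups did not overlap, but the difference of 0.14 was not called (adjusted p = 0.150, limma). The iron-sulfur subunit Sdhb differed by 0.02, with knockout values of 10.94, 10.53 and 10.67 on both sides of the rescued range of 10.62 to 10.76. Sdhc, the other anchor, differed by 0.07, with an interval of -0.11 to 0.24. The call of Sdhd was thus not shared by its partners, though whether the 4 genes differ from each other was not tested.

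Complex III moves electrons from ubiquinol to cytochrome c. None of its 8 genes was called by limma, while 1 passed an unadjusted 0.05. The median difference was 0.05, 0.01 after quantile normalization, 0.03 after cyclic loess and -0.06 after median centring. Uqcrc1, a core protein of the matrix side, was the gene with the smallest p. It read 11.24, 11.15 and 10.94 in knockout and 10.90, 10.87, 10.92 and 10.999 in rescued arrays. The groups overlapped through knockout replicate 3, and the difference was 0.19 with adjusted p = 0.124 (limma). It was called without that array, at 0.27 with adjusted p = 0.0421. Uqcrfs1, the Rieske iron-sulfur protein, differed by 0.15 with no overlap between the groups and adjusted p = 0.143. Uqcrh, the hinge protein near cytochrome c1, had the lowest value of the complex, -0.17, with an interval of -0.35 to 0.01. Uqcrb, a small subunit near the quinone site, read 12.36 ± 0.03 (SD, n = 3) against 12.29 ± 0.02 (SD, n = 4), without overlap. The core protein gene Uqcrc2 read 12.06 in all 4 rescued arrays, to the last digit deposited, and 12.15, 12.04 and 12.07 in the knockout arrays. No other member and 37 genes in all had 4 equal rescued values, and the SD of 0 is too small as a measure of their spread. At least 2 equal rescued values occurred in 7 members, 8.64%, and in 13.9% of all genes.

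Complex IV, cytochrome c oxidase, has subunits that come in a widely expressed and a tissue-restricted form. Of its 17 genes 1 was called higher, beside 9.54% of all genes and 9.09% of genes above the median level. None was called lower, and the median difference was 0.07. The median was 0.00 after quantile normalization, 0.02 after cyclic loess and -0.04 after median centring. Without the 7 isoforms known mainly from muscle, lung or testis, the other 10 had a median of 0.03 and no call. Cox4i1, the main form in liver of the regulatory subunit, read 10.46, 10.48 and 10.20 in knockout and 10.28, 10.20, 10.30 and 10.21 in rescued arrays. Its difference of 0.13 had an interval of -0.05 to 0.31. Cox6a1 and Cox8a, the liver-type forms of their subunits, differed by 0.10 and -0.07, with intervals of -0.07 to 0.27 and -0.21 to 0.07. Cox6b1 differed by -0.02, Cox7a2 by -0.09 and Cox7b by -0.08, none of them called. Cox6c read 12.98 ± 0.02 (SD, n = 3) against 12.99 ± 0.01 (SD, n = 4).

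The tissue-restricted isoforms sat on the positive side as deposited. All 8, with the Ndufa4 paralog Ndufa4l2 counted among them, had estimates above 0, with a median of 0.22, beside 68.5% of all genes above 0 and their median of 0.09. Of the 9966 genes above the median level 4985 were above 0, with a median of 0.00, so the offset of all genes lay in dimmer ones. The 6 subunit genes below that level are all among these isoforms. The set's median was 0.10 after quantile normalization, 0.09 after cyclic loess and 0.11 after median centring. In each of these Cox7a1, Cox7b2 and Cox8c turned below 0, and none of the 8 was called. Their partner isoforms of wide expression were brighter, at 9.41 to 12.33, and had a median of -0.07 as deposited, with 2 of 7 above 0 and none called. Cox8b, the heart and muscle form of subunit VIII, was the only one called. It read 6.47, 6.40 and 6.30 in knockout and 6.11, 6.16, 6.16 and 6.17 in rescued arrays, with no overlap. The difference was 0.24 (SE 0.07, 1.18-fold higher) with adjusted p = 0.0376 in limma's test. It was 0.11 after quantile normalization (adjusted p = 0.313), 0.10 after cyclic loess (0.350) and 0.13 after median centring (0.222), so the call stood on the deposited scaling alone. With an array left out it was 0.20 to 0.29, and again dropping any array other than knockout replicate 3 ended the call.

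The lung isoform Cox4i2 (0.23), the testis isoform Cox6b2 (0.26) and the muscle isoform Cox6a2 (0.23) were not called as deposited. Without knockout replicate 2 all 3 were, with adjusted p of 0.0341, 0.0468 and 0.0387, and Cox6b2 also without rescued replicate 1 (0.0488). Rescaling lowered them to 0.12 to 0.13, 0.14 to 0.15 and 0.11 to 0.17, with adjusted p of 0.285 to 0.318, 0.235 to 0.259 and 0.229 to 0.383. Ndufa4l2 differed by 0.21, the muscle isoform Cox7a1 by 0.02, and the testis isoforms Cox7b2 and Cox8c by 0.05 and 0.10. Cox7b2 read 4.43 against 4.38 and was the only one of the 81 genes below the 95th percentile, 6.21, of the 1194 odorant and pheromone receptor genes measured, a class liver is not known to use. The 4 rescued values of Cox8b also lay below that percentile, and its mean over the 7 arrays passed it through the knockout values, so its fold compares a level of this kind. Muscle and brown fat markers were counted beside these isoforms. Of 9 markers 1 was called, the cardiac troponin gene Tnnt2, higher by 0.30, a call that no other scaling kept. Their summed level was 9.0 to 9.14 in knockout and 8.87 to 8.98 in rescued arrays, and none was listed at 0. The markers had a median difference of 0.12, beside 0.09 over all genes, so the sums include the deposited offset between the groups. The part of these markers in the values of the isoforms was not tested.

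Cox7a2l, a relative of subunit VIIa known for joining complexes III and IV, differed by 0.20 (adjusted p = 0.135). Its interval was 0.00 to 0.39. Ndufa4 carries a complex I name but is known as a subunit of complex IV. It read 10.56, 10.23 and 10.51 in knockout and 10.59, 10.62, 10.77 and 10.62 in rescued arrays. The knockout values all lay lower. The difference of -0.21 was not called as deposited (adjusted p = 0.119, limma) and was called after median centring (-0.33, adjusted p = 0.0371). Counting it with complex IV left that median at 0.07.

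None of the 17 ATP synthase genes was called by limma, and the unadjusted p of each was above 0.05. The differences ran from -0.16 for Atp5l to 0.07 for Atp5b, with a median of 0.00. The whole interval lay within 1.25-fold for 16 of 17. In the catalytic head, the beta subunit gene Atp5b read 13.17, 13.15 and 13.15 in knockout and 13.07, 13.10, 13.07 and 13.12 in rescued arrays. The groups did not overlap although the difference was 0.07, and its interval was -0.06 to 0.21. The alpha subunit gene Atp5a1 differed by -0.03 and the delta subunit gene Atp5d by -0.002, with intervals of -0.19 to 0.13 and -0.14 to 0.13. The genes Atp5g1, Atp5g2 and Atp5g3 encode the same mature ring protein, and they differed by -0.04, -0.08 and 0.06. Of the peripheral stalk, Atp5o had the largest difference, -0.11. Atp5l, subunit g of the membrane part, read 10.33, 10.12 and 10.21 against 10.49, 10.27, 10.31 and 10.44, with overlap. It was not called as deposited (adjusted p = 0.173) and was called after median centring (-0.28, adjusted p = 0.0298), as were Ndufa11 and Uqcrh. That scaling put the median of genes above the median level at -0.115. The other Ndufa11 probe set, at a level of 9.48, differed by 0.08 as deposited. The median of complex V was -0.03 after quantile normalization, -0.03 after cyclic loess and -0.11 after median centring.

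**Figure D2:**
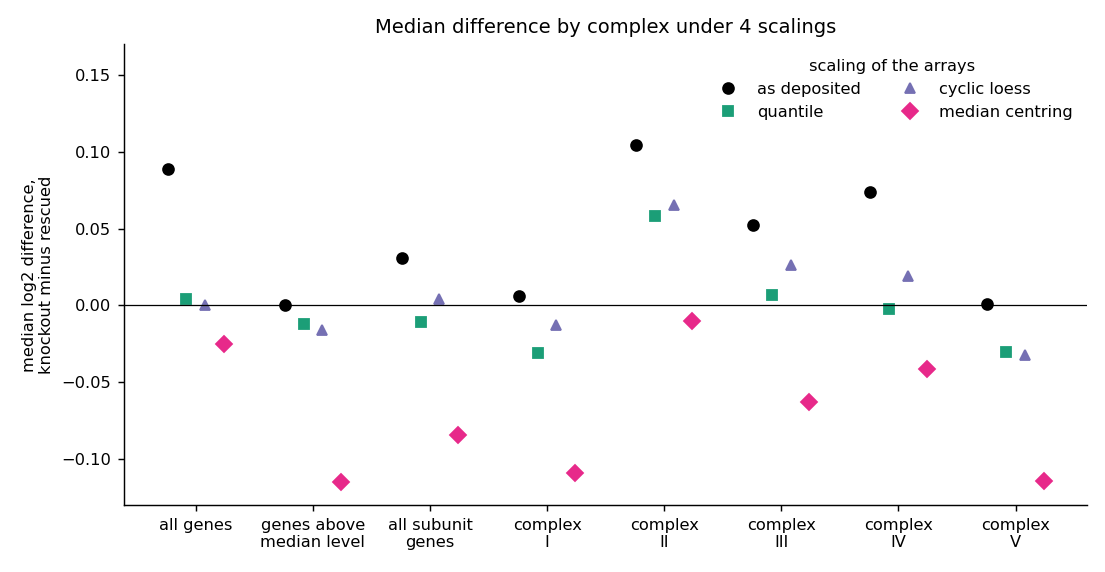
Median log2 difference, knockout minus rescued, of all genes, of genes above the median level, of all subunit genes and of each complex, as deposited and after 3 rescalings of the arrays. As deposited all genes lie at 0.09 and the members at 0.03, and median centring moves every group below 0.

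Of the 81 genes, 16 had more than 1 probe set. Their 23 dimmer probe sets gave the opposite sign for 9 genes, among them Atp5l, whose 4 others ran from -0.34 to 0.31. Of the 23, 2 passed an adjusted p under 0.05 over all rows, 1 of Atp5l (-0.34) and 1 of Atp5h (0.47, at a level of 4.74). Processed copies of these genes are common in the genome, and a probe set can read them. A further 6 probe sets carried a symbol of this kind together with another gene, 1 of them the Ndufs5 probe set above. The others were annotated to Cox7c or Ndufb4, which have no probe set of their own and so are not among the 81. The brightest of Cox7c read 12.82 against 12.76 and that of Ndufb4 read 12.20 against 12.14, with differences of 0.06 and 0.07.

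As deposited, the knockout arrays spread more widely than the rescued arrays. In 66 of 81 members, 81.5%, the SD over the 3 knockout arrays exceeded that over the 4 rescued arrays, against 57.7% of all genes and 59.4% of genes above the median level. The median SD of the members was 0.114 in knockout and 0.0601 in rescued arrays. After rescaling the members' count was 55 (quantile, 67.9%), 59 (cyclic loess, 72.8%) and 50 (median centring, 61.7%) of 81. In the same order the shares of all genes were 58.2%, 56.6% and 53.2%. Those of genes above the median level were 59.0%, 56.8% and 50.1%. The members' median deviation from the rescued mean was 0.09, 0.01 and -0.03 in knockout replicates 1, 2 and 3, beside 0.13, 0.06 and 0.04 for all genes. After cyclic loess it was 0.01, -0.03 and 0.00. The difference in spread was not tested.

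**Figure D3:**
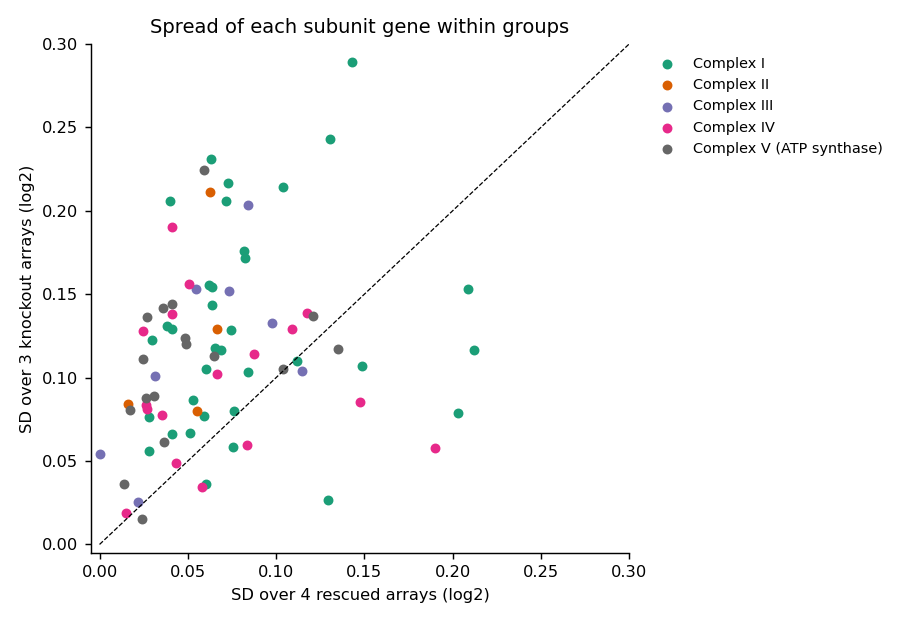
SD of each subunit gene over the 4 rescued arrays (x axis) and the 3 knockout arrays (y axis), in log2 units as deposited, coloured by complex. The dashed line marks equal spread, and 66 of 81 points lie above it.

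Single genes of related lists differed more than any subunit gene. Among 12 measured citrate cycle genes 3 were called higher and none lower. Called higher were 9.54% of all genes and 9.09% of genes above the median level. Citrate synthase, Cs, which opens the cycle, read 11.28, 11.03 and 10.74 in knockout and 10.42, 10.36, 10.33 and 10.42 in rescued arrays. Every knockout value was above every rescued one, though the knockout arrays differed widely. The difference was 0.63 (SE 0.11, 1.55-fold higher), with adjusted p = 0.00653 in limma's test. It was called in all 3 other scalings and with any array left out (0.50 to 0.77). Suclg1, the alpha subunit of succinyl-CoA ligase, read 10.79 ± 0.18 (SD, n = 3) against 10.33 ± 0.10 (SD, n = 4), 1.37-fold higher (adjusted p = 0.0137, limma). Only dropping knockout replicate 1 ended the call (adjusted p = 0.0617). Suclg2, a partner beta subunit, was higher by 0.24 (adjusted p = 0.0431) and was not called in any of the 3 other scalings. Dlst was called after cyclic loess alone of the 4 scalings (adjusted p = 0.0472). Dropping knockout 2, knockout 3, rescued 2, rescued 3 or rescued 4 also ended the call of Suclg2. The median of this list was 0.12, 0.11 after quantile normalization, 0.12 after cyclic loess and 0.01 after median centring. In the same order, genes above the median level had medians of 0.00, -0.012, -0.016 and -0.115.

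The list of electron carriers held 15 measured genes: those of coenzyme Q synthesis, cytochrome c, the electron transfer flavoproteins, and the subunit genes Cyc1 (complex III) and Ndufab1 (complex I), whose symbols the rule above did not take. Of these, 1 was called higher and none lower, beside 9.54% of all genes and 9.09% of genes above the median level called higher. The median was 0.12, but 0.08 after quantile normalization, 0.07 after cyclic loess, 0.005 after median centring, 0.01 with the mean of a gene's probe sets and 0.06 without knockout replicate 2. The called gene was Coq8a, an atypical kinase-like protein needed for coenzyme Q synthesis. It read 10.46, 10.42 and 10.46 in knockout and 9.95, 9.61, 9.74 and 9.80 in rescued arrays. The knockout arrays were nearly alike and all higher. The difference was 0.67 (SE 0.08, 1.59-fold higher) with adjusted p = 0.00122 in limma's test, and it was called in all 3 other scalings and with any array left out. Ndufab1 differed by 0.26 as deposited (adjusted p = 0.0746) and was called after quantile normalization (0.0364) and cyclic loess (0.0415), not after median centring (0.317). It was also called without knockout replicate 3 (0.0247), and the mean of its probe sets gave -0.03. The cytochrome genes Cyc1 and Cycs differed by 0.07 and 0.12 and were not called.

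Assembly factors build the complexes without staying in them. Of 44 measured, 3 were called lower and none higher, beside 4.85% of all genes and 8.73% of genes above the median level called lower. The median was -0.04, or -0.07 after quantile normalization, -0.08 after cyclic loess and -0.15 after median centring. After median centring 10 were called lower, beside 10.9% of all genes. Ndufaf4, an early factor for complex I, read 7.91, 7.98 and 7.63 in knockout and 8.11, 8.38, 8.45 and 8.58 in rescued arrays, with no overlap. It was 1.46-fold lower (adjusted p = 0.0163, limma). Bcs1l, which inserts the Rieske protein into complex III, was lower by a difference of -0.33 (adjusted p = 0.0275). Sdhaf1, needed for the clusters of Sdhb, differed by -0.39 (adjusted p = 0.0324). All 3 were called in every scaling. Dropping knockout 1 or rescued 3 ended the call of Ndufaf4. For Bcs1l this was so of knockout 2, knockout 3 and rescued 4, and for Sdhaf1 of knockout 1, knockout 3, rescued 3 and rescued 4.

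Among 22 regulators of mitochondrial biogenesis 1 was called, on the lower side. The shares called lower were 4.85% of all genes and 8.73% of genes above the median level. The called gene was Tfb1m, which encodes a methyltransferase of mitochondrial ribosomal RNA. It read 8.16 ± 0.22 (SD, n = 3) against 8.66 ± 0.22 (SD, n = 4), which is 1.41-fold lower (adjusted p = 0.0290, limma). Dropping knockout 1, knockout 3, rescued 3 or rescued 4 ended the call. Values are also given for the regulators whose motifs were searched, chosen after their values were seen. Nrf1 differed by -0.39 (adjusted p = 0.0620), with a call after median centring (0.0390) and without rescued replicate 1 (0.042), and Gabpa by -0.15 (adjusted p = 0.299). Yy1 differed the other way, by 0.15 (adjusted p = 0.169). Esrra, which encodes ERR alpha, differed by -0.03 and the coactivator gene Ppargc1a by 0.12, neither called. Pprc1, a relative of the PGC-1 coactivators, differed by -0.18 as deposited (adjusted p = 0.0811) and was called lower in the 3 other scalings (adjusted p = 0.0471, 0.0492 and 0.0198 after quantile, cyclic loess and median centring). The median of the list was -0.04, or -0.06 after quantile normalization, -0.07 after cyclic loess and -0.15 after median centring.

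Of 9 genes of inhibitors, supercomplex factors and adenine nucleotide or phosphate carriers limma called none. An unadjusted 0.05 was passed by 3 of them, beside 35.7% of all genes. Cox7a2l, 1 of these 3, and Atp5md are also among the 81 subunit genes. The smallest p was that of the ADP/ATP carrier gene Slc25a5, which differed by 0.18 (adjusted p = 0.114). The mitochondrial DNA genes named on the arrays were COX2 and ND3, with differences of 0.19 (adjusted p = 0.111) and 0.07 (adjusted p = 0.434). The vacuolar proton pump, built like ATP synthase but not part of the chain, had 1 of 13 genes higher and 1 lower, Atp6v0d2 (1.61) and Atp6v0b (-0.28). Of all genes 9.54% were called higher and 4.85% lower.

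**Figure D4:**
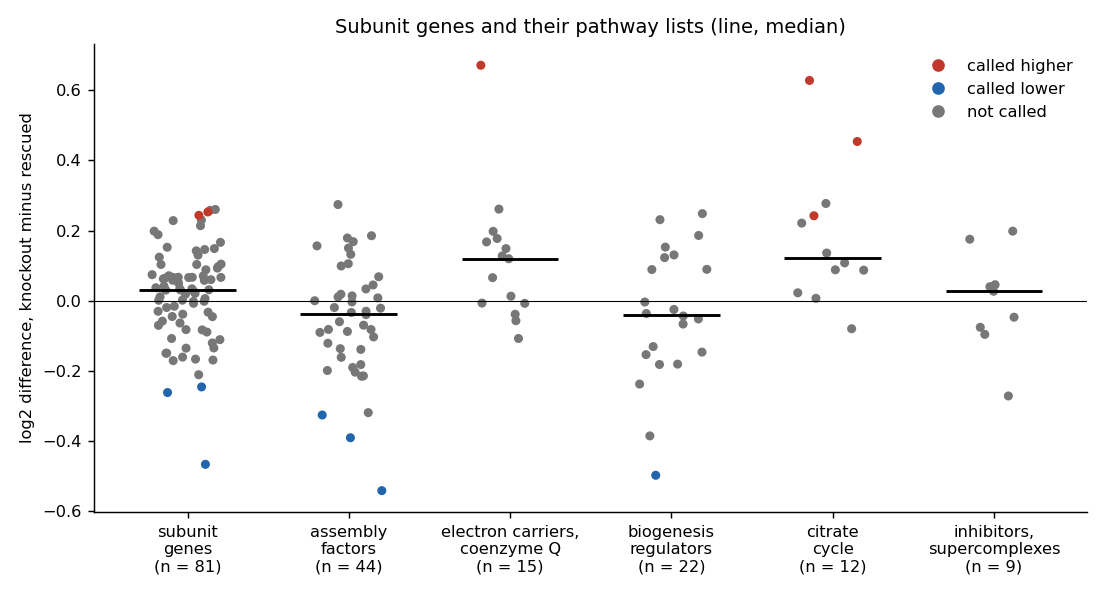
Log2 difference, knockout minus rescued, of each subunit gene and of the genes of 5 related lists, with the median as a line and called genes in colour. The subunit genes lie between -0.47 and 0.26, while of the list genes Coq8a (0.67), Cs (0.63) and Suclg1 (0.45) lie farthest above that range and Ndufaf4 (-0.54) and Tfb1m (-0.50) below it.

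**Figure D5:**
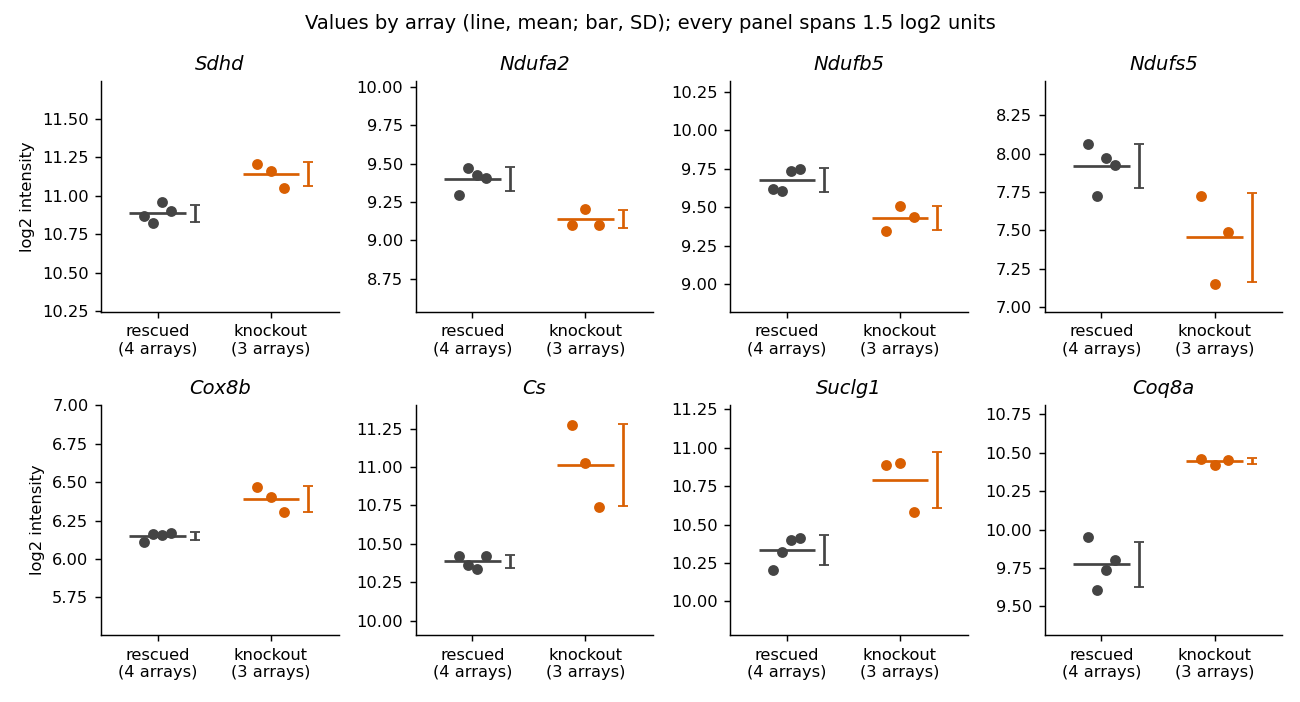
Log2 intensity by array of the 5 called subunit genes and of Cs, Suclg1 and Coq8a, with rescued arrays in grey and knockout arrays in orange, the mean as a line and the SD as a bar. Every panel spans the same range, so the differences of the subunit genes can be set beside the larger ones of Cs and Coq8a.

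Markers of other liver cell types were counted for the same arrays. None of 10 Kupffer cell and leukocyte markers was called, and their summed level was 11.66 to 11.88 in knockout and 11.30 to 11.85 in rescued arrays. Of 10 stellate and endothelial markers Lrat was higher (0.32) and Clec4g lower (-0.29), with sums of 12.21 to 12.38 and 12.39 to 12.40. None of 4 cholangiocyte markers was called, with sums of 9.0 to 9.19 and 8.80 to 8.94, which include the deposited offset between the groups. Of the erythroid markers, Alas2 was lower by a difference of -1.15, Slc4a1 differed by 0.37 without a call, and the sums were 8.69 to 9.12 and 9.70 to 9.94. Their part in the values of the subunit genes was not tested.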

How the data were processed

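Per the labels, liver RNA of 3 knockout and 4 rescued mice was read on 1 array each. The authors deposited intensities, which run from 5.41 to 17351 and so are on a linear scale. RMA and Partek are the tools in the submitters' processing notes, with neither role nor version, and the scaling applied last was not stated in the sources used here. RMA includes quantile normalization and a summary of the probes of a probe set, which can bring small differences closer to 0. For the genome build of the annotation: not given in the sources used here.

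Of 27541 rows, 21631 had 1 symbol in the platform annotation, 1317 several and 4593 none, and those with several or none were left out of the gene table. All 81 subunit genes were found in the RefSeq gene table. The deposited intensities were taken to log2 and the brightest row was kept for each gene. Across the 19933 genes, limma 3.58.1 (R 4.3.3) gave the comparison of the groups, two-sided and without covariates, from lmFit and eBayes, at a threshold of 0.05. The fit was tested on simulated arrays with equal spread in both groups and no offset between them. The deposited arrays showed an offset and unequal spread, which that test does not cover. Figures were drawn with matplotlib 3.10.9.

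Named genes are all called members; in each complex the 2 brightest, the 2 with the smallest p and the most positive and negativethe tissue isoforms with their partners; Hdac3; and up to 4 called genes of each list, or the smallest p where none was called. Members, lists and rule were chosen with earlier results of these data known; other genes are named for their role, after their values were seen. Alternatives were 3 rescalings, a filter on dim genes, the mean of rows, trend with robust spread, array weights, the replicate block, each array left out and thresholds of 0.01 and 0.1. The counts of intervals within a fold were added after the data were seen.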

Additional observations from a re-analysis of the deposited data

Results flagged for a closer look

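In the rescued group, 1 array stood apart from the other 3 for 5 of 110 genes checked, by the ratio of the gap to the range against Dixon's critical value for 4 samples at 95%. Chance gives about 1 in 20 such cases. Cox8a had a ratio of 0.871, with rescued replicate 1 at 11.69 and the next at 11.61. Ndufa8 had 0.889, with the same array at 10.54 and the next at 10.41, and Ndufv3 0.914, with that array lowest at 8.53 and the next at 8.65. Ndufa4 had 0.831, with rescued replicate 3 at 10.77 and the next at 10.62, and Ndufv2 0.865, with rescued replicate 2 at 10.79 and the next at 10.84. None of these genes was called as deposited.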

How the results depend on the processing

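The count of genes called was 2867, 509 at an adjusted p under 0.01, 5528 under 0.1 and 897 to 3263 with an array left out, with the lowest counts without knockout replicate 1 (897) and rescued replicate 3 (948). Subunit genes called higher numbered 2, but 0 after quantile normalization, 0 after median centring, 1 after cyclic loess, 1 among genes above the median level, 0 at 0.01, 6 at 0.1 and 0 to 4 with an array left out. Subunit genes called lower numbered 3, but 7 after median centring, 0 at 0.01 and 0 to 2 with an array left out. With the replicate number as a block they were 0 higher and 1 lower. Same-numbered arrays deviated together at r = 0.151, 0.003 and 0.005. Arrays of different number were not correlated for comparison, so these values do not settle whether the numbers pair the arrays.

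Median centring moved the median of all genes from 0.09 to -0.03 and that of genes above the median level from 0.00 to -0.115. With them moved the medians of the subunit genes (-0.084) and of complex I (-0.109), II (-0.011), III (-0.063), IV (-0.041) and V (-0.114). Those of assembly factors (-0.152), electron carriers (0.00483), regulators (-0.155), citrate cycle (0.0071) and inhibitors (-0.088) moved too. Quantile normalization moved complex III to 0.0071, complex IV to -0.0018, electron carriers to 0.078 and inhibitors to -0.044. Cyclic loess moved complex IV to 0.020, assembly factors to -0.083, electron carriers to 0.072 and inhibitors to -0.050. The mean of rows moved complex III to 0.015, electron carriers to 0.013 and inhibitors to -0.047, and the replicate block moved electron carriers to 0.079. With an array left out complex I ranged from -0.015 to 0.051, complex III from 0.038 to 0.097, electron carriers from 0.056 to 0.133 and inhibitors from -0.0676 to 0.0446. The causes were not tested. Of 111 genes followed singly, the 81 subunit genes and 30 others, 14 gained a call in 23 values and 16 lost one in 101 values, and no called value changed sign.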
